A study of Mus musculus with 4 samples.

Results

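The 34 genes described here encode the enzymes that build cholesterol and fatty acids and the proteins that set the activity of these pathways. They were taken by symbol, by their role in these pathways, with earlier results of these data known. All 34 were found among the 17013 genes listed, and all 34 were among the 12470 genes tested. The 34 comprised 6 regulators, 18 enzymes of the sterol branch and 10 enzymes of the fatty acid synthesis and desaturation branch. RNA came from wild-type (WT) macrophages grown from mouse bone marrow with M-CSF, the growth factor that drives macrophage differentiation. Marrow and fat were taken from male C57BL/6 mice, and neither the age of these mice nor whether marrow was pooled is given in the sources used here. The cells sat on porous inserts for 24 h over medium made from digested, freeze-thawed abdominal fat, and both groups also received artificial necrotic bone fluid (aNBF). The fat control group (Con) received the middle layer of the centrifuged fat preparation, and the high-fat group (Fat) received its top layer, with 2 libraries in each. Con was therefore itself exposed to necrotic fat tissue and aNBF, and no library without them was included. The study asks how the uptake of necrotic fat changes the state of macrophages. These libraries compare the 2 layers, and none had uptake blocked, so an effect of uptake itself was not tested. The labels do not say whether the 2 libraries of a medium came from separate cultures or animals, so the p-values measure the spread between these libraries only, which may be technical. Values are reads scaled by library size (CPM), and a single read was worth 0.0244 to 0.0295 CPM in totals of 33573852 to 40785872 reads.

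Macrophages make cholesterol from acetyl-CoA through mevalonate and squalene, and they make fatty acids from the same precursor through malonyl-CoA. Both branches are switched on by the SREBP transcription factors, which sit in the endoplasmic reticulum bound to their escort SCAP. INSIG proteins hold this complex in place when sterols are plentiful, and polyunsaturated fatty acids also lower the activity of the fatty acid branch.

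The macrophage identity given in the labels was borne by its markers. All 8 macrophage markers were detected, with at least 4948 reads in every library, and their summed level was 35962 and 33920 CPM in Con and 28504 and 26918 CPM in Fat. Most of this sum was Lyz2, at 28721 and 26819 CPM in Con and 21516 and 20347 CPM in Fat. Lyz2 was called lower by DESeq2 but not by limma (adjusted p = 0.209). Both Fat libraries lay below both Con libraries for 6 of the 8 markers (75%), against 26.2% of all tested genes. For Cd68 and Itgam the groups overlapped, with estimates above 0. Of these markers, Fcgr1 was called lower at 278 and 242 CPM in Con and 166 and 121 CPM in Fat (limma adjusted p = 0.0123), also with any 1 library left out. Mertk was called lower at 232 and 215 CPM in Con and 187 and 172 CPM in Fat (limma adjusted p = 0.0289), but not without Con 1 (0.0878), without Fat 2 (0.149) or in TPM (0.0776). Among 12 adipocyte markers, the 10 other than Fabp4 and Lipe, which macrophages also express, summed to 5 and 8 reads in Con and 174 and 118 reads in Fat. Adipoq, Cidea, Lep, Pck1 and Adrb3 were at 0 reads in both Con libraries. These sums were 0.147 and 0.213 CPM in Con and 4.66 and 2.88 CPM in Fat. With Fabp4 and Lipe included, the adipocyte list summed to 209 and 229 CPM in Con and 201 and 197 CPM in Fat. Only 3 of the 12 adipocyte markers reached the level for testing, so most of them could not be called. Among the 3, Cidec, the lipid droplet gene of fat cells, had 0 and 2 reads in Con and 67 and 47 reads in Fat. It passed the level filter through its Fat values alone, so no p-value is given for it. Dcn, a fibroblast matrix gene, was called lower at 2.68 and 2.75 CPM in Con and 1.34 and 1.66 CPM in Fat (limma adjusted p = 0.0358), but not by DESeq2 or with any 1 library left out (limma adjusted p from 0.0525 to 0.113). Fibroblast markers summed to 631 and 658 CPM in Con and 529 and 676 CPM in Fat, endothelial markers to between 4.66 and 7.59 CPM, and markers of other leukocytes to between 258 and 299.7 CPM. The part of these shifts in the results for the pathway genes was not tested. In bulk RNA, fewer cells of a type and less RNA per cell cannot be told apart.

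In the high-fat medium, members of both branches were lower more often than higher, with Scd2 at the low end of the log2 fold changes and Dhcr7 at the high end. Of the 34 genes, 6 were called lower, 1 was called higher and 27 were not called at a limma adjusted p under 0.05. The genes called lower were Pmvk and Fdps of the sterol branch and Fasn, Scd1, Scd2 and Elovl6 of the fatty acid branch, and the gene called higher was Dhcr7, the last enzyme of one route to cholesterol. Among all tested genes 5.0% were called lower and 3.99% higher, against 17.6% of the members lower. Both Fat libraries lay below both Con libraries for 20 members (58.8%), compared with 26.2% of all tested genes. Both lay above for 4 members (11.8%), compared with 29.4%, and for 10 members the groups overlapped. Before adjustment, 17 members had a limma p under 0.05 and were lower (12.4% of all tested genes) and 3 were higher (11.8%). The median log2 fold change, Fat over Con, was -0.15 over the members and 0.01 over all tested genes. With 2 libraries a group, an exact permutation test of a single gene cannot go below p = 0.333, so the calls rest on the spread limma shares across genes.

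**Figure D1:**
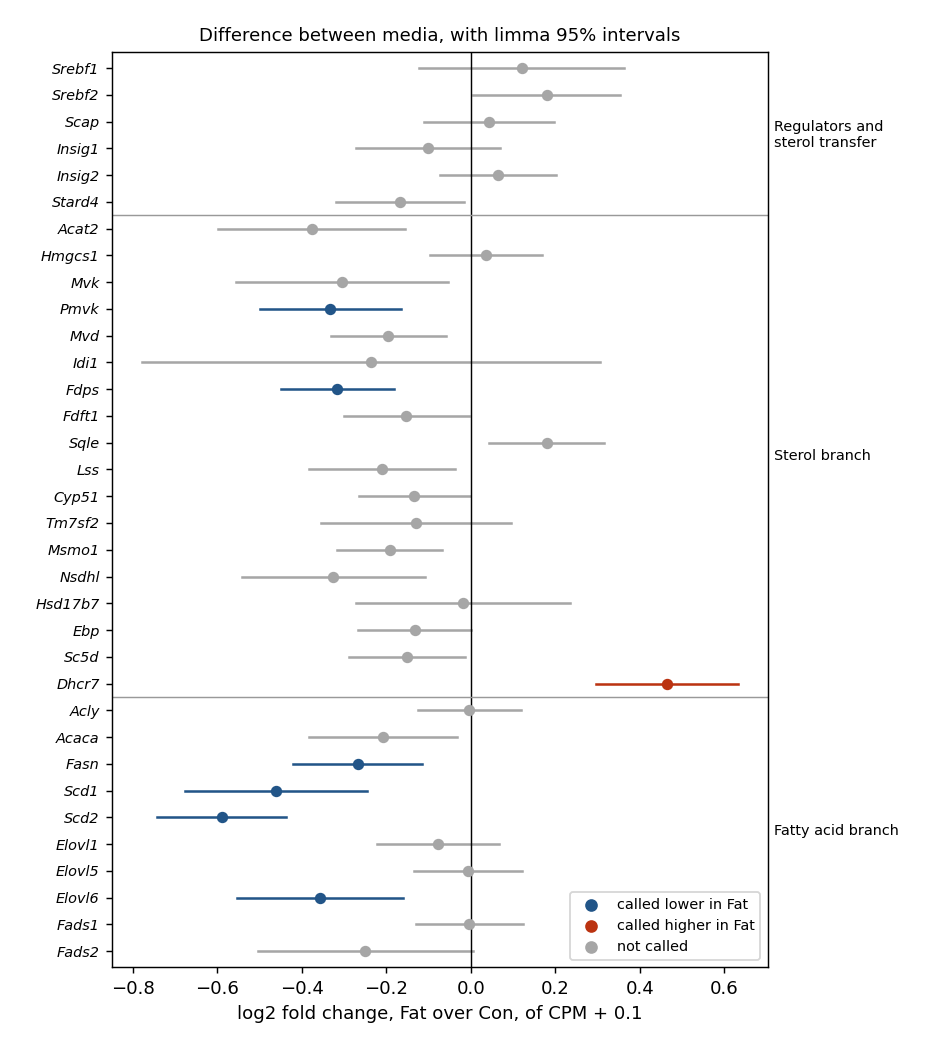
Log2 fold change of each of the 34 genes, Fat over Con, by group of function, with 95% limma intervals and genes called at an adjusted p under 0.05 marked. Scd2 lies furthest to the left at -0.59 and Dhcr7 furthest to the right at 0.46, and 27 of 34 estimates are below 0, or 23 in TPM.

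The promoters of the members were searched for motifs, and the search itself used no expression value. The genes set beside the members were those that passed the level filter for testing, and the printed windows were chosen partly by the calls. RefSeq windows of the 250 bases before the listed start of transcription (build GRCm38.p6) were used for 27 of the 34 members. These were 36 windows, and for 31 the bases after the start were found in a GENCODE vM21 transcript of the gene. The start of the remaining windows was not borne out in this way, and they were kept in the counts. Stard4, Fdps, Fdft1, Sqle, Scd1, Scd2 and Fads1 had none. Windows on 1 chromosome were left out, which can account only for members on it, and the rest had no listed window. That chromosome was left out for the members only and was kept for the other tested genes. A sterol response element, the site SREBP binds, was searched on both strands as TCACNCCAC, together with the CCAAT box, the site of the SREBP partner NF-Y, as CCAAT, and the GC box bound by Sp factors as GGGCGG. The CCAAT box was found in 21 of the 27 (77.8%) and in 40.7% of the 9348 tested genes with a window, including 14 of 15 sterol enzymes and 3 of 7 fatty acid enzymes. The GC box was found in 22 of 27 (81.5%) against 63.8%. The TCACNCCAC element was found in Hmgcs1 only, against 1.23% of the tested genes, and these letters are 1 form of a variable site. A match is a description of these letters and not a binding site. The windows of Hmgcs1, of the 3rd listed start of Dhcr7, of Fasn and of Elovl6 are shown because they belong to the gene with the TCACNCCAC match, the gene called higher and a pair of genes called lower with and without a CCAAT box. Capitals mark matches to TCACNCCAC or CCAAT on either strand, and each window is printed 5′ to 3′ on the strand of its gene.
Hmgcs1, chr13:119690101-119690350, plus strand: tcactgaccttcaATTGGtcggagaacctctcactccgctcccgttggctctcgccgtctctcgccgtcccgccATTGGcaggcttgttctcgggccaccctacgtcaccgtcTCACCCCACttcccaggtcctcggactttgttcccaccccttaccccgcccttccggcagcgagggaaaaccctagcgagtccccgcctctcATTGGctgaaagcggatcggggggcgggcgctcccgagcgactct
Dhcr7, chr7:143829964-143830213, plus strand: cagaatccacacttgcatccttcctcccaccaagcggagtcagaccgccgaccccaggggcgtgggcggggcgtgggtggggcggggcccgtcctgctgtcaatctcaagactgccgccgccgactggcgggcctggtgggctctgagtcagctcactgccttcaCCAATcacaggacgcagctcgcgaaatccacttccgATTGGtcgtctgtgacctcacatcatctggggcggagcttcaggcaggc
Fasn, chr11:120824548-120824797, minus strand: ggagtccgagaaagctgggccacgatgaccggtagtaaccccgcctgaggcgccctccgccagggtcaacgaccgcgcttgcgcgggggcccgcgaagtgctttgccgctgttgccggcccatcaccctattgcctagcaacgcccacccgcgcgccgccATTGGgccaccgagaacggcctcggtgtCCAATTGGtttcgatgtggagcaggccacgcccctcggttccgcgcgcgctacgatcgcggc
Elovl6, chr3:129532136-129532385, plus strand: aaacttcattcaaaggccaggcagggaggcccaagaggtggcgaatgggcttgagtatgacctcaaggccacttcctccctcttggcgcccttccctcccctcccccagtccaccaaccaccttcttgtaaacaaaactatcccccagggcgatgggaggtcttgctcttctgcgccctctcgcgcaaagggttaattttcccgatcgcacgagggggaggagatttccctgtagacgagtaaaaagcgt
The Hmgcs1 window held the TCACNCCAC match 137 bases before the start, with 3 CCAAT boxes around it. The Dhcr7 window held 2 CCAAT boxes, 85 and 49 bases before the start, and the Fasn window held 3, of which a pair overlapped. The Elovl6 window held no match to any of the motifs. The other 2 Dhcr7 windows held no CCAAT box.

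Without a block for the replicate number, none of the 6 regulators was called by limma, edgeR or DESeq2 (0 by each). Before adjustment limma put 1 lower and 1 higher, beside 12.4% and 11.8% of all tested genes. Srebf2, which encodes the SREBP that mainly drives sterol genes, stood at 106 and 116 CPM in Con and 119 and 134 CPM in Fat. Both Fat libraries were above both Con libraries, with a log2 fold change of 0.18 (SE 0.07, 95% interval 0.005 to 0.354, limma adjusted p = 0.195). Srebf1, which encodes the SREBP forms tied more closely to fatty acid synthesis, was at 50.2 and 58.2 CPM in Con and 53.5 and 64.4 CPM in Fat. Its groups overlapped, and the interval of its difference ran from -0.12 to 0.36 (limma adjusted p = 0.537). The escort gene Scap was at 54.7 and 58.9 CPM in Con and 56.6 and 60.4 CPM in Fat, also overlapping, with an interval of -0.11 to 0.20 (limma adjusted p = 0.746). Insig1, an anchor of the complex that is itself an SREBP target, was at 88.3 and 77.6 CPM in Con and 78.8 and 75.5 CPM in Fat. Its groups overlapped, with an interval of -0.27 to 0.07 (limma adjusted p = 0.449). Insig2, the second anchor, was at 40.10 and 40.01 CPM in Con and 41.3 and 42.5 CPM in Fat. Both Fat values were above Con by a small margin (limma adjusted p = 0.563). Stard4, a cholesterol carrier in the cytosol that is also an SREBP target, was at 34.5 and 32.8 CPM in Con and 30.2 and 29.7 CPM in Fat. It was the only regulator with both Fat libraries below both Con libraries, with a log2 fold change of -0.17 (SE 0.06, limma adjusted p = 0.165). In TPM, which is scaled by gene length, Insig1 exceeded Insig2 by ratios of 2.46 and 2.16 in Con and 2.13 and 1.98 in Fat, and both Fat ratios were below both Con ratios. The TPM ratio of Srebf2 to Srebf1 was 1.99 and 1.88 in Con and 2.09 and 1.95 in Fat, with overlapping groups.

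In the sterol branch, 2 of 18 enzymes fell (11.1%), 1 rose and 15 were not called, beside 5.0% of all tested genes lower and 3.99% higher. Both genes that fell act on the route from mevalonate to farnesyl diphosphate. Pmvk, which adds the second phosphate to mevalonate, was at 23.09 and 23.03 CPM in Con and 18.62 and 17.95 CPM in Fat. Each Con library was above each Fat library. Pmvk fell by 20.6%, with a log2 fold change of -0.33 (SE 0.07, limma adjusted p = 0.0305). Fdps, which makes farnesyl diphosphate, the branch point to sterols and prenyl groups, was at 51.4 and 52.0 CPM in Con and 41.2 and 41.8 CPM in Fat. The groups were far apart relative to the gap within each. Fdps fell by 19.7%, with a log2 fold change of -0.32 (SE 0.06, limma adjusted p = 0.0183). Of the stretches of 75 bases in its transcripts 23.5% are also found in transcripts of other genes, named Gm43738, Gm3571 and Gm5873, so its reads may be split with them. With 1 library left out Pmvk was never called and Fdps was called only without Con 2. Without Con 1, Con 2, Fat 1 or Fat 2 in turn, the limma adjusted p was 0.106, 0.0764, 0.0652 and 0.150 for Pmvk and 0.0504, 0.0437, 0.0593 and 0.0678 for Fdps, with log2 fold changes of -0.36 to -0.31 and -0.33 to -0.30.

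The largest estimate below 0 in the sterol branch belonged to Acat2, the cytosolic acetyl-CoA acetyltransferase at the head of the pathway. It was at 13.5 and 14.1 CPM in Con and 11.2 and 10.05 CPM in Fat, with no overlap. Its log2 fold change was -0.38 (SE 0.09, 95% interval -0.60 to -0.15), and it missed the threshold at a limma adjusted p of 0.0518. Of its stretches of 75 bases 33.9% are shared with Acat3 or Tcp1. Hmgcs1, which makes HMG-CoA from acetyl-CoA units, was at 153 and 143 CPM in Con and 151 and 152 CPM in Fat. Its groups overlapped, and the interval of its log2 difference was -0.10 to 0.17. Mvk, the mevalonate kinase, was at 9.55 and 11.04 CPM in Con and 8.41 and 8.17 CPM in Fat, and Mvd, which forms isopentenyl diphosphate, was at 47.0 and 48.0 CPM in Con and 41.98 and 40.9 CPM in Fat. Both were without overlap and not called (limma adjusted p = 0.134 and 0.0870). Idi1, the isopentenyl diphosphate isomerase, had the lowest level, at 2.45 and 3.15 CPM in Con and 1.90 and 2.88 CPM in Fat, and its groups overlapped. Of its stretches of 75 bases 23.6% are shared with other genes.

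Beyond farnesyl diphosphate most enzymes had lower values in both Fat libraries without being called. Fdft1, the squalene synthase, was at 35.4 and 33.9 CPM in Con and 31.3 and 31.0 CPM in Fat, and Lss, which closes squalene epoxide to lanosterol, at 29.8 and 27.2 CPM in Con and 24.6 in both Fat libraries. The demethylation enzymes Msmo1 (146 and 140.4 CPM in Con, 124 and 127 CPM in Fat) and Nsdhl (32.8 and 29.9 CPM in Con, 26.95 and 23.1 CPM in Fat) were likewise without overlap, with log2 fold changes of -0.19 and -0.33 and limma adjusted p of 0.0707 and 0.0753. Nsdhl passed the threshold without Fat 1 (limma adjusted p = 0.0328). Cyp51, the lanosterol demethylase, was at 103 and 99.9 CPM in Con and 89.8 and 94.9 CPM in Fat, and the isomerase gene Ebp at 45.97 and 46.3 CPM in Con and 42.3 and 41.8 CPM in Fat. Sc5d, the lathosterol desaturase, was at 60.9 and 57.8 CPM in Con and 54.3 and 52.7 CPM in Fat. In these 3 genes too the groups did not overlap. Tm7sf2, a sterol reductase, was at 12.18 and 13.2 CPM in Con and 11.1 and 12.17 CPM in Fat, so that its groups came close without overlap (log2 fold change -0.13, limma adjusted p = 0.470). Hsd17b7, a sterol ketone reductase, had overlapping groups and a log2 fold change of -0.02. In all, 13 of 18 sterol enzymes (72.2%) had both Fat libraries below both Con libraries, against 26.2% of all tested genes. For 2 (11.1%) both lay above, against 29.4%, and 3 overlapped.

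The 2 sterol enzymes with higher values in both Fat libraries were Sqle and Dhcr7. Sqle, the squalene epoxidase and a rate-controlling step, was at 67.9 and 70.0 CPM in Con and 75.8 and 80.5 CPM in Fat. Both Fat libraries were above Con, and the log2 fold change of 0.18 (SE 0.06) was not called (limma adjusted p = 0.109). Dhcr7, which encodes the reductase that turns 7-dehydrocholesterol into cholesterol, was at 73.9 and 84.5 CPM in Con and 109.7 and 108 CPM in Fat. The gap between the media exceeded the gap between the Con libraries. Dhcr7 rose by 37.9%, with a log2 fold change of 0.46 (SE 0.07, 95% interval 0.30 to 0.63, limma adjusted p = 0.0114). It stayed called with any 1 library left out, at limma adjusted p from 0.00173 to 0.0298.

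In the fatty acid branch 4 of 10 enzymes fell (40%), 0 rose by limma (0 also before adjustment, by edgeR and by DESeq2) and 6 were not called. Over all tested genes limma called 5.0% lower and 3.99% higher. The genes that fell make, elongate and desaturate saturated fatty acids. Fasn, the fatty acid synthase that builds palmitate, was at 73.3 and 77.0 CPM in Con and 59.7 and 65.1 CPM in Fat. Its groups did not overlap, and it fell by 16.96% (log2 fold change -0.27, SE 0.06, limma adjusted p = 0.0456). Elovl6, which lengthens palmitate to stearate, was at 16.5 and 15.5 CPM in Con and 12.2 and 12.7 CPM in Fat. It fell by 21.9% without overlap (log2 fold change -0.36, SE 0.08, limma adjusted p = 0.0416). Leaving out any 1 library took Fasn and Elovl6 past the threshold, at limma adjusted p from 0.0617 to 0.181 and from 0.0618 to 0.180. Their log2 fold changes then ran from -0.33 to -0.21 and from -0.40 to -0.31.

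Scd1 and Scd2 encode stearoyl-CoA desaturases, which put the first double bond into saturated fatty acids and so make oleate and palmitoleate. Scd2 was at 203 and 217 CPM in Con and 133 and 146 CPM in Fat. Both Fat libraries were well below both Con libraries. Scd2 fell by 33.6%, the largest fall among the 34 genes, with a log2 fold change of -0.59 (SE 0.07, 95% interval -0.74 to -0.44, limma adjusted p = 0.00440). It stayed called with any 1 library left out (limma adjusted p 0.0030 to 0.00507). Scd1 was at 16.6 and 17.5 CPM in Con and 13.1 and 11.7 CPM in Fat. Its groups did not overlap, and it fell by 27.4% (log2 fold change -0.46, SE 0.09, limma adjusted p = 0.0243). Scd1 was called without Fat 1 (limma adjusted p = 0.0223) but not without Con 1, Con 2 or Fat 2 (0.0540, 0.0674 and 0.112). Scd2 stood above Scd1 by TPM ratios of 10.83 and 10.996 in Con and 9.02 and 11.1 in Fat, with overlapping groups. Of their stretches of 75 bases 3.15% in Scd1 and 1.78% in Scd2 are shared with other genes, each other among them.

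The steps that supply the branch, the polyunsaturated steps and the elongation of very long chains held the 6 genes that were not called. Acaca, the carboxylase that makes malonyl-CoA, was at 19.3 and 18.9 CPM in Con and 16.8 and 16.2 CPM in Fat. Its groups did not overlap, but its log2 fold change of -0.21 (SE 0.08) was not called (limma adjusted p = 0.140), and 26.8% of its stretches of 75 bases are shared with other genes. Acly, which makes cytosolic acetyl-CoA for both branches, was at 243 CPM in both Con libraries and 245 and 239 CPM in Fat. The interval of its log2 difference was -0.12 to 0.12. Fads2, the delta-6 desaturase that starts the polyunsaturated route, was at 10.3 and 11.6 CPM in Con and 8.71 and 9.71 CPM in Fat, without overlap and not called (limma adjusted p = 0.215). Its partner Fads1, the delta-5 desaturase, was at 141 and 134 CPM in Con and 139 and 135 CPM in Fat, with an interval of -0.13 to 0.12. Elovl5, an elongase of polyunsaturated fatty acids, was at 67.9 and 69.8 CPM in Con and 69.2 and 67.9 CPM in Fat, and its interval was -0.13 to 0.12. Elovl1, an elongase of very long saturated chains, was at 145 and 139 CPM in Con and 139.9 and 129 CPM in Fat, with an interval of -0.22 to 0.07. The groups overlapped in Acly, Fads1, Elovl5 and Elovl1.

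The branches were set side by side by the mean over their genes of the log2 deviation of each library from the mean of the 4 libraries. For the sterol branch this was 0.07 in both Con libraries and -0.08 and -0.06 in Fat. For the fatty acid branch it was 0.10 and 0.12 in Con and -0.11 in both Fat libraries. For the regulators it was -0.03 and 0.00 in Con and -0.03 and 0.05 in Fat. In both enzyme branches each Fat library was below each Con library, and the regulators overlapped. The difference between Fat and Con was -0.14 for the sterol branch, -0.22 for the fatty acid branch and 0.02 for the regulators. The median log2 fold change was -0.17 over the sterol genes (range -0.38 to 0.46), -0.23 over the fatty acid genes (range -0.59 to -0.00) and 0.05 over the regulators. The sterol median exceeded the fatty acid median by 0.06, and no test was made of this difference. It ran from 0.01 to 0.10 with a library left out. Estimates below 0 were found for 15 of 18 sterol genes, 10 of 10 fatty acid genes and 2 of 6 regulators, against 46.4% of all tested genes, although Hsd17b7, Acly, Elovl5 and Fads1 turned above 0 in TPM. The groups overlapped for 3 of the 18 sterol genes and 4 of the 10 fatty acid genes. Over all tested genes both Fat libraries lay below both Con libraries for 26.2% and above for 29.4%.

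**Figure D2:**
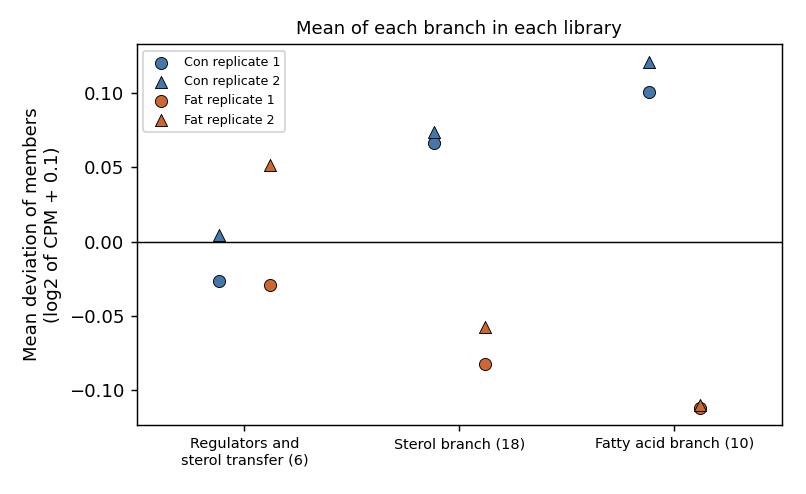
Mean log2 deviation of the genes of each group in each library from the mean of all 4 libraries, for the regulators (6 genes), the sterol branch (18) and the fatty acid branch (10). The Fat libraries lie below the Con libraries for both enzyme branches, from -0.11 to -0.06 against 0.07 to 0.12, and overlap them for the regulators.

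Levels can be compared between genes only per length, so the deposited TPM values were used for their order. Msmo1 (161 TPM, mean of the 4 libraries), Elovl1 (156 TPM) and Acly (120.0 TPM) were the most abundant of the 34 transcripts. Elovl6 (5.24 TPM), Acaca (4.31 TPM) and Idi1 (1.98 TPM) were the least abundant. Dhcr7 was at 60.9 ± 4.93 TPM in Con and 85.8 ± 0.728 TPM in Fat (mean ± SD, n = 2), and its share of the summed TPM of the sterol enzymes was 7.26% in Con and 10.7% in Fat. Scd2 was at 83.4 ± 2.73 TPM in Con and 56.7 ± 3.55 TPM in Fat, and its share of the fatty acid branch was 15.14% and 10.98%. The sterol enzymes summed to 851 and 827 TPM in Con and 802 and 805 TPM in Fat. The fatty acid enzymes summed to 557 and 545 TPM in Con and 522 and 509.6 TPM in Fat. Both sums were lower in each Fat library than in each Con library. By TPM 3 members rather than 6 were called lower (Pmvk, Fdps and Scd2), and over all tested genes 366 were called lower (2.94%) and 425 higher (3.41%), compared with 624 and 498 by CPM.

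**Figure D3:**
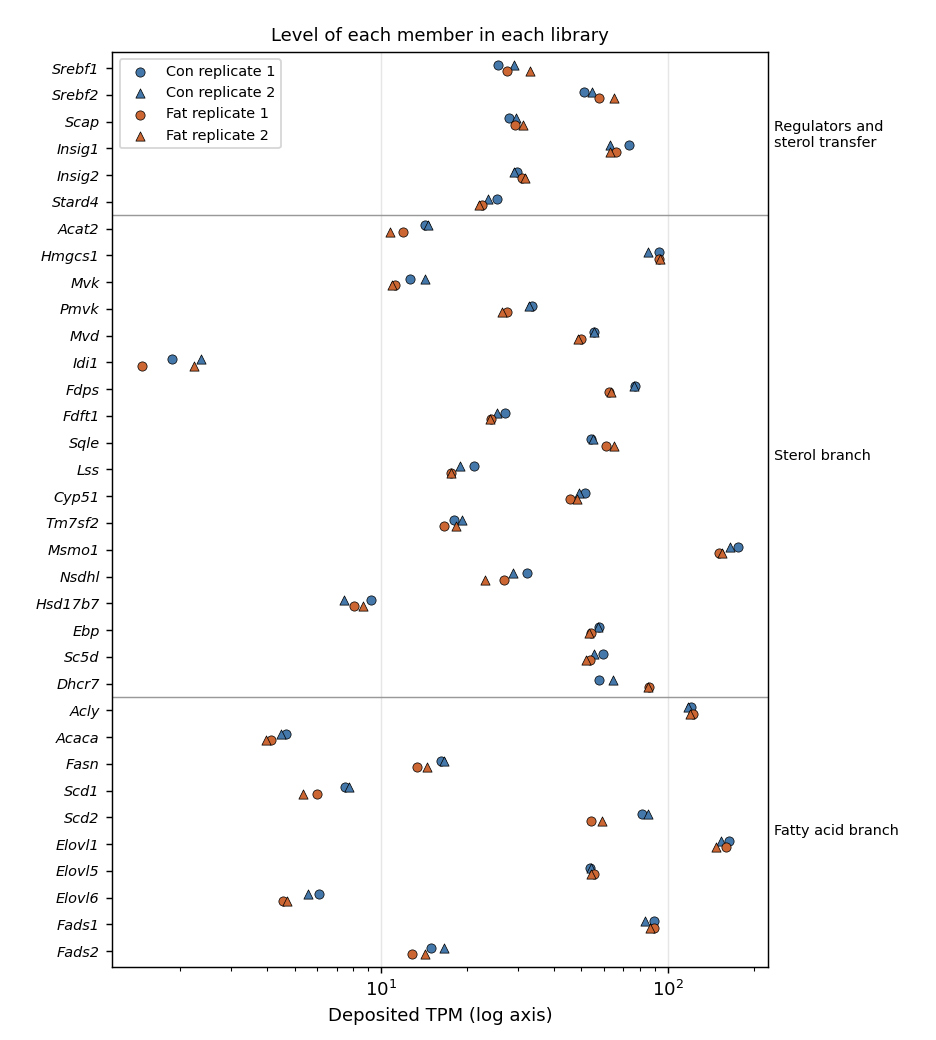
Deposited TPM of each of the 34 genes in each of the 4 libraries on a log axis, by group of function, with colour for the medium and symbol for the replicate. The levels span from 1.47 TPM (Idi1 in Fat 1) to 175 TPM (Msmo1 in Con 1), and the Scd2 and Dhcr7 libraries separate by medium in opposite directions.

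Other genes of these pathways were listed from textbook knowledge. Of 14 further sterol and isoprenoid genes, 1 fell and 0 rose by limma, edgeR and DESeq2 (1 higher before adjustment). The share called lower was 7.1%, near that of all tested genes, of which limma called 5.0% lower and 3.99% higher. The gene that fell was Rnf145, a sterol-responsive ubiquitin ligase, at 112 and 109 CPM in Con and 75.1 and 78.0 CPM in Fat (log2 fold change -0.53, SE 0.05, limma adjusted p = 0.00355, called with any 1 library left out). The median log2 fold change of this list was -0.03. Of 18 tested genes of fatty acid supply and elongation, 1 fell (5.6%) and 0 rose by limma and edgeR, again near the share of all tested genes. Before adjustment limma put 5 lower and 0 higher, beside 12.4% and 11.8% of all tested genes. DESeq2 called 2 lower and 0 higher. The gene that fell by limma was Hacd4, listed as Ptplad2, a dehydratase of fatty acid elongation, at 77.0 and 78.3 CPM in Con and 64.8 and 58.1 CPM in Fat (log2 fold change -0.34, limma adjusted p = 0.0240). Hacd4 was not called without Con 1 or Fat 2 (limma adjusted p = 0.0504 and 0.117), nor in TPM (0.0532). The median of this list was -0.05.

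Genes of sterol efflux and of the sterol sensor LXR went in both directions. Of 7 tested, 2 fell (28.6%) and 1 rose, with a median of -0.06, beside 5.0% of all tested genes called lower and 3.99% higher. In TPM 0 were called lower by limma (2 before adjustment) and 1 higher, beside 2.94% and 3.41% of all tested genes. Abca1, the exporter of cholesterol to lipid-poor lipoproteins, was at 439 and 389 CPM in Con and 328 and 339 CPM in Fat (log2 fold change -0.31, limma adjusted p = 0.0385). Abcg1, a partner exporter, was at 194 and 213 CPM in Con and 171 and 150.3 CPM in Fat (log2 fold change -0.34, limma adjusted p = 0.0371). Lpcat3, a phospholipid remodelling enzyme, was at 50.5 and 51.7 CPM in Con and 62.2 and 61.5 CPM in Fat (log2 fold change 0.27, limma adjusted p = 0.0255). In none of these 3 genes did the groups overlap. With a library left out, Abca1 and Lpcat3 were called only without Con 2 (limma adjusted p = 0.00701 and 0.0420), and Abcg1 was not called without Con 2 or Fat 2 (0.0827 and 0.170). In TPM Abca1 and Abcg1 had limma adjusted p of 0.0958 and 0.0789.

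How far the 7 called members depend on the way the values are tested differed between them. Over 13 alternative settings, Scd2 and Dhcr7 were called in 12, Fdps in 9, Scd1 in 8, Pmvk in 7, and Fasn and Elovl6 in 5 each. All 7 kept their direction in all 13. Scd2 and Dhcr7 lost their calls only without the mean-variance trend in limma (adjusted p = 0.0831 and 0.107), where 0 members and 31 genes in all were called (0.0962% lower and 0.152% higher). In that setting 13 members were lower and 1 higher at an unadjusted limma p under 0.05. The share of all tested genes at that unadjusted level was not counted there, so these counts have no background beside them. On the recovered reads edgeR called 7 members lower and 1 higher and DESeq2 4 lower and 1 higher. The share of all tested genes called lower and higher was 5.20% and 3.93% by edgeR and 4.77% and 3.66% by DESeq2. It was 4.01% higher with a pseudocount of 1 CPM, 3.13% lower and 2.48% higher with no filter, 5.32% and 4.18% with a mean of at least 5 CPM, 5.43% and 3.88% with median-ratio scaling, and 9.96% and 10.2% with the replicate number as a block. Without Con 1 it was 2.57% in each direction, without Con 2 it was 4.86% and 4.16%, without Fat 1 it was 4.63% and 3.40%, and without Fat 2 it was 2.23% and 1.57%.

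**Figure D4:**
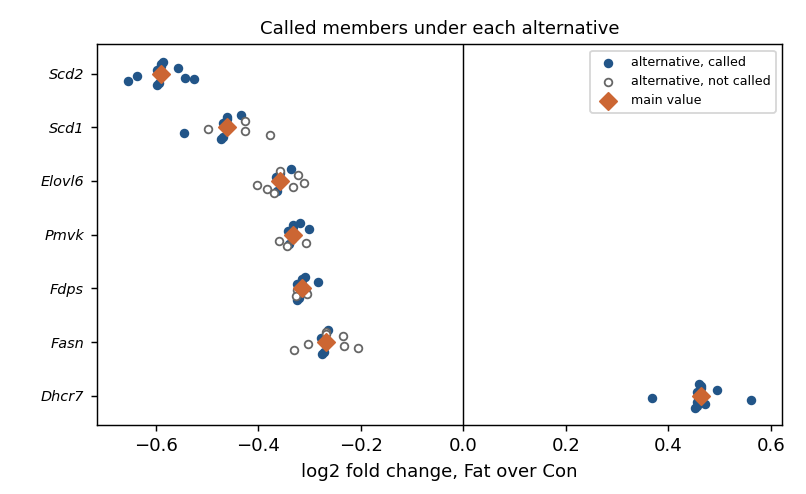
Log2 fold change, Fat over Con, of the 7 called members in the main test and in each of 13 alternative settings, with filled points where the gene was called. Scd2 and Dhcr7 are called in 12 of 13 alternatives, and no point crosses 0.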

How the data were processed

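Polyadenylated RNA of macrophages was sequenced by the study in 4 stranded libraries as single reads of 75 bases. CPM values were deposited by the authors as read counts scaled by library size, and TPM values were deposited by the authors with a further scaling by gene length. The submitters' processing notes name build GRCm39, while the aligner, the annotation and the strand setting of the counting are not given in the sources used here. Whole reads were recovered from the CPM values (100% of values within 0.01 of a whole read). Totals were 33573852 and 37881292 reads in Con and 37534565 and 40785872 reads in Fat. The scaling factors implied by the CPM values and these totals ran from 0.990 to 1.01, so the CPM values hold a small scaling beyond the recovered totals. The 2 libraries of a medium differed by more than counting noise (chi-square per degree of freedom 13.2 in Con and 13.0 in Fat), so neither pair was treated as a single library deposited again. This does not separate biological from technical replicates.

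Fat was compared with Con by limma 3.58.1 (R 4.3.3) with a mean-variance trend on log2(CPM + 0.1), for genes reaching 0.5 CPM in 2 or more libraries. Tests were two-sided with Benjamini-Hochberg adjustment over 12470 genes, and calls were made at an adjusted p under 0.05. Fold changes on this scale understate the change of genes with few reads. Genes were matched by the listed symbol or an older RefSeq symbol, and Ly6g of the leukocyte list was not matched. Named with the value in every library were the called members, the regulators and the extremes of each branch, and from the lists of other sterol, fatty acid and efflux genes the called genes. Values of the other members and of called cell type markers were added after they were seen. A further listed gene is not reported here. The members and lists were chosen with earlier results of these data known. The alternatives used a larger pseudocount (1 CPM), all genes without a filter, genes averaging 5 CPM or more, TPM, median-ratio scaling, a block for the replicate number, limma without its trend, 3 of the 4 libraries, and edgeR 4.0.16 (quasi-likelihood) or DESeq2 1.42.0 on the recovered reads. A fit without a library assumes that the lone library of its medium varies like the other pair. The main limma test, edgeR and DESeq2 were checked on simulated data with log2 changes of 1 and 2 in either direction. Smaller changes, such as those of the called members, and the other alternatives were not simulated. Shared sequence was sought as exact matches of 75 bases on either strand in GENCODE vM21 transcripts (GRCm38). By this measure Fdft1 (21.8%), Hmgcs1 (9.79%), Tm7sf2 (8.83%) and Scap (8.26%) also shared stretches with other genes. Members for which no share is given had at most 2.07%.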

Additional observations from a re-analysis of the deposited data

How the results depend on the processing

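Of 441 values of single members over the 13 alternatives, 381 kept their direction and their side of the threshold, 33 lost a call, 11 gained one and 16 reversed, all in 8 members that were never called. In TPM, 3 members were called lower, the sterol median was -0.14, the fatty acid median was -0.20, and Hsd17b7 (0.013), Acly (0.029), Elovl5 (0.025) and Fads1 (0.029) turned above 0, where the median over all tested genes was 0.04. With a mean of at least 5 CPM the sterol median was -0.15. Without the mean-variance trend 0 members were called lower, 0 higher and 31 genes in all, against 1122 in the main test, and the cause was not tested. No filter left 4 members lower and DESeq2 left 4, and median-ratio scaling and edgeR added Acat2. With 1 library left out, 1 to 3 members were called lower, 469 to 1114 genes were called, the sterol median ran from -0.19 to -0.15, the fatty acid median from -0.25 to -0.19 and the branch difference from 0.0085 to 0.10. Over the same fits Srebf1 ran from -0.013 to 0.25, Scap from -0.011 to 0.096, Hmgcs1 from -0.013 to 0.085, Idi1 from -0.52 to 0.051, Hsd17b7 from -0.16 to 0.13, Acly from -0.021 to 0.014, Elovl5 from -0.027 to 0.013 and Fads1 from -0.038 to 0.031.

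The 2 replicate numbers are shared by the media, but the labels do not say that they mark a batch, and the deviations of libraries with the same number correlated at 0.20. The replicate block called 12 members lower, 3 higher and 2520 genes in all, and added Srebf2, Acat2, Mvk, Mvd, Sqle, Lss, Msmo1 and Nsdhl to the 7 called without it. The smallest member values were 71 reads (Idi1), and the value of a single read reflects counting only, whereas the limma intervals reflect the spread between libraries. With 2 libraries a group, a difference that was not called may still be present.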
